A study of Mus musculus with 4 samples.

Results

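Keratin-associated proteins fill the space between keratin filaments in the hair shaft and link those filaments to each other, largely through disulfide bonds between their many cysteines. They are made late, by the epithelial cells of the growing hair follicle that are turning into cortex and cuticle, and their genes lie in a few dense clusters of short genes. The family is divided by composition into high-cysteine, ultra-high-cysteine and glycine-tyrosine-rich proteins. Keratin-associated protein genes were taken as those whose probe sets carried 1 gene symbol beginning with Krtap and a number, together with Gm11559, Gm11567 and Gm10228, which have no family name. This gave 46 probe sets for 41 genes, among 45101 probe sets and 18193 genes on the array. By family number 11 of them were high-cysteine, 14 ultra-high-cysteine and 13 glycine-tyrosine-rich, and the 3 Gm genes were not assigned.

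The study asked how the skin of the abdomen, which expands during pregnancy, differs from skin that does not expand, and measured dermal cells on 4 Mouse430_2 arrays. All mice were C57BL/6 females, 10 weeks old per the labels, with no transgene or mutation named. The 4 arrays held abdominal skin (ventral in the labels) of virgin mice given DMSO, dorsal skin of pregnant mice given DMSO, abdominal skin of pregnant mice given PP2, and abdominal skin of pregnant mice given DMSO. They are called virgin, dorsal, PP2 and abdominal hereafter. PP2 is an inhibitor of Src family kinases, used at 1 mM, and DMSO is its solvent. Injections were intradermal, 2 a day over 4 days, starting 12 days post-coitus in the pregnant mice. Those mice were titled 15 days post-coitus, whereas the sample descriptions name a day later. Each condition had 1 array, and neither the labels nor the methods say how many mice contributed RNA to it. Differences are therefore given as sizes, with no error and no test, and a difference between 2 arrays cannot be told apart from the spread between animals or preparations. The PP2 and dorsal arrays differ in both body site and agent, so their comparison does not separate the 2. The abdominal array served in every comparison with the other 3, which are therefore not independent of each other. The genes were picked out because earlier results of these arrays showed them high on the abdominal array, so their levels there are a description.

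Values are MAS5 signals, a brightness for each probe set on a linear scale, and each signal carries a detection call of present, marginal or absent. The share of probe sets called present was 58.4 to 59.7% on the 4 arrays, and median signals were 103 to 136. The dimmest present signal was 10.7 on virgin, 9.36 on dorsal, 3.96 on PP2 and 6.57 on abdominal. Folds written "at least" below use it as a floor for undetected signals. It is not a detection limit, since an absent signal on virgin reached 138 (*Krtap19-9b*), so such folds are nominal. The 3' to 5' signal ratio of Gapdh, a measure of RNA integrity and labelling, was 2.51 on virgin, 2.97 on dorsal, 5.84 on PP2 and 1.41 on abdominal. That of actin was 2.64, 4.14, 2.70 and 2.03 in the same order. Both were lowest on abdominal, where the keratin-associated protein genes were highest, but between PP2 and dorsal they ran opposite ways, and their part in the levels was not tested. The samples are labelled dermis, and 9 of 9 dermal fibroblast markers were present on every array, with summed signals of 114485 to 146220. Epidermal keratinocyte markers were present as well, 9 of 10 on virgin and 10 of 10 on the others. Their summed signal was 75681 on virgin, 126914 on dorsal, 56955 on PP2 and 96899 on abdominal. Epithelial RNA was thus in every preparation, and in such mixed cells fewer cells of a type and less RNA per cell cannot be told apart.

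Signals of the keratin-associated protein family were mostly low on the virgin array and high on the abdominal array, with the dorsal and PP2 arrays mostly between. Of the 41 genes, 6 were called present on virgin, 29 on dorsal, 27 on PP2 and 35 on abdominal. Of all probe sets, 58.4%, 58.8%, 59.7% and 59.4% were present in the same order. At least 1 array had a present call for 35 of the 41 and for 13375 of all 18193 genes. The counts on dorsal and PP2 alone therefore do not set the family apart. The abdominal array had the highest signal for 39 of 41 genes, called present or not. In 26 genes the signals ran in the order abdominal, dorsal, PP2, virgin. *Krtap17-1* and *Krtap5-3* had their highest signal on the dorsal array, the latter without a present call on any array. Of the genes, 19 were present on all 3 arrays of pregnant mice but not on virgin, and 5 (*Krtap6-5*, *Krtap10-4*, *Krtap17-1*, *Krtap28-13* and *Gm10228*) were present on all 4. *Krtap5-1*, *Krtap5-2*, *Krtap5-3*, *Krtap5-4* and *Krtap13* were present on none, nor was *Krtap12-1* by its brighter probe set.

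**Figure D1:**
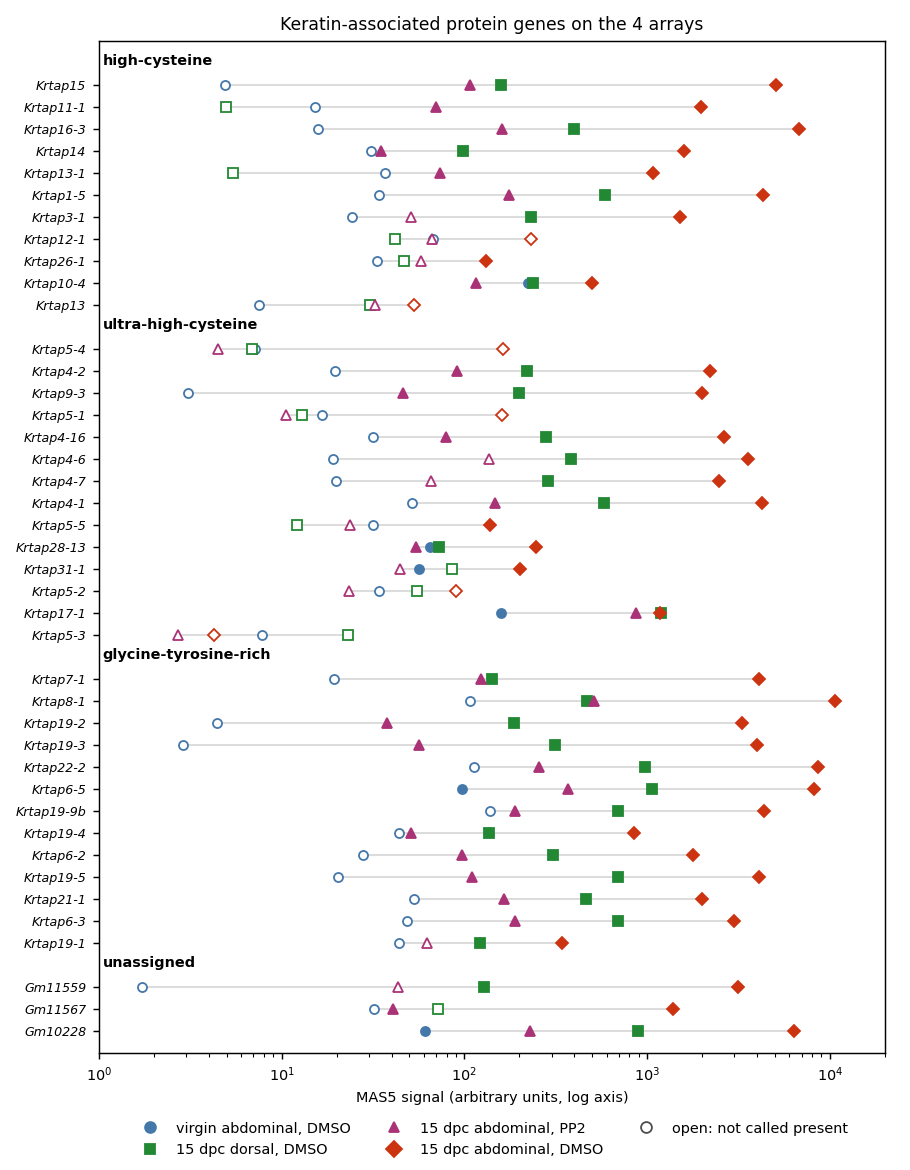
MAS5 signal of each measured keratin-associated protein gene on the 4 arrays (colours and shapes), on a log axis and grouped by subfamily, with open symbols for signals not called present. The abdominal symbol lies farthest to the right for 39 of 41 genes, with *Krtap17-1* and *Krtap5-3* as the exceptions.

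Many of the genes share their surroundings. RefSeq (GRCm38.p6) placed 21 of the 41 on chromosome 16 and 12 on chromosome 11, and the rest on chromosomes 7, 10 and 1. In the RefSeq promoter table, which spans 250 bases before to 50 bases after each annotated start, 39 of the 41 had an entry and *Krtap7-1* and *Krtap12-1* were not listed. The letters TATAAA, the core of the TATA box to which the transcription machinery binds, occurred on either strand in 32 of these 39 promoters (82.1%), against 13.6% of all 32851. In 24 of the 39 (61.5%) they began 40 to 21 bases before the start on the gene's own strand, against 1.99% of all. *Krtap14*, *Krtap15*, *Krtap19-1*, *Krtap19-2*, *Krtap19-3*, *Krtap19-4* and *Krtap5-3* lacked them. The first 6 of these held TATATAA instead, a form searched for only after those promoters had been read. TATATAA was found in 14 of the 39 (35.9%), against 3.24% of all, and it can overlap TATAAA. It was present in 8 of 10 high-cysteine and 6 of 12 glycine-tyrosine-rich promoters, and in 0 of 14 ultra-high-cysteine ones. Sites of LEF and TCF factors resemble the letters CTTTGAT, which occurred in 2 of the 39 promoters (5.13%) against 3.73% of all. The related letters CTTTGTT occurred in 8 (20.5%) against 5.85% of all. TATAAA occurred in 27 of 33 promoters of genes present on abdominal and above 2 times each of the other 3 arrays there. In the other members it occurred in 5 of 6, so these letters did not set the genes with that pattern apart. These counts describe letters in a window, not binding.

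The 100 bases before the start are printed for 6 genes whose signals mark the range of patterns described below. *Krtap15* and *Krtap11-1* were the high-cysteine genes that stood out most on the abdominal array, *Krtap4-1* is an ultra-high-cysteine gene of the common pattern, and *Krtap17-1* is the gene that was no higher there than on dorsal. *Krtap8-1* and *Krtap19-3* are glycine-tyrosine-rich genes with a high and a low ratio of PP2 over dorsal. Capitals mark any of the 4 letter strings named above, on either strand. In GRCm38.p6 the windows are chr16:88828909-88829008 (plus strand) for *Krtap15*, and on the minus strand chr16:89571184-89571283 for *Krtap11-1*, chr11:99628240-99628339 for *Krtap4-1*, chr11:99993995-99994094 for *Krtap17-1*, chr16:89487953-89488052 for *Krtap8-1* and chr16:88878039-88878138 for *Krtap19-3*.
Krtap15: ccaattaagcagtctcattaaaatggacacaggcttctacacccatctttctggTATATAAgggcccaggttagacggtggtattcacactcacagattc
Krtap11-1: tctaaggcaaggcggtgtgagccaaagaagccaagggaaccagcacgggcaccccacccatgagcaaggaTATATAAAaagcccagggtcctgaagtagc
Krtap4-1: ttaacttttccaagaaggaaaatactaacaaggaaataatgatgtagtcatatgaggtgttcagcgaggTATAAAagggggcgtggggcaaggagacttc
Krtap17-1: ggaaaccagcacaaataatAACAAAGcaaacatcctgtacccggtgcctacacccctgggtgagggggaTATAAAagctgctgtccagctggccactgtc
Krtap8-1: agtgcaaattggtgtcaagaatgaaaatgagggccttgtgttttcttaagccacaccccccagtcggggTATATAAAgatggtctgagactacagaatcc
Krtap19-3: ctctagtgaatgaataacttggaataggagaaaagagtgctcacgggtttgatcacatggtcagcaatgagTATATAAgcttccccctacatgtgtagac
All 6 carried 1 of the TATA forms, or both overlapping, shortly before the start, *Krtap17-1* included, so these letters did not separate it from the others.

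Each comparison was read over all 41 genes before single genes. A gene was counted as higher on an array when its signal exceeded 2 times that of the other array and it was called present on the brighter one. Over virgin, 35 of 41 were higher on abdominal and 0 lower, where 2.39% of all genes on the array were higher and 2.49% lower. The median ratio over the 41 was 62.3-fold (5.96 on the log2 scale, and 6.36 over the 35 genes present on any array). Those 35 were all present on abdominal. Over PP2, 34 were higher and 0 lower, against 3.48% and 2.66% of all genes, with a median of 24.3-fold (log2 4.60, and 4.72 over the 35). Over dorsal, 34 were higher and 0 lower, against 3.7% and 3.49% of all genes, with a median of 7.78-fold (log2 2.96, and 3.11 over the 35). The same medians over all genes lay at log2 0.04 or closer to 0. Signals above 2 times those on each of the other 3 arrays, with a present call on abdominal, were found for 34 of the 41 and for 0.61% of all genes, 111 in number. The 34 comprised 9 of 11 high-cysteine, 9 of 14 ultra-high-cysteine, 13 of 13 glycine-tyrosine-rich and 3 of 3 unassigned genes. Because high levels on this array led to the choice of the family, these counts describe it and are no evidence of their own.

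**Figure D2:**
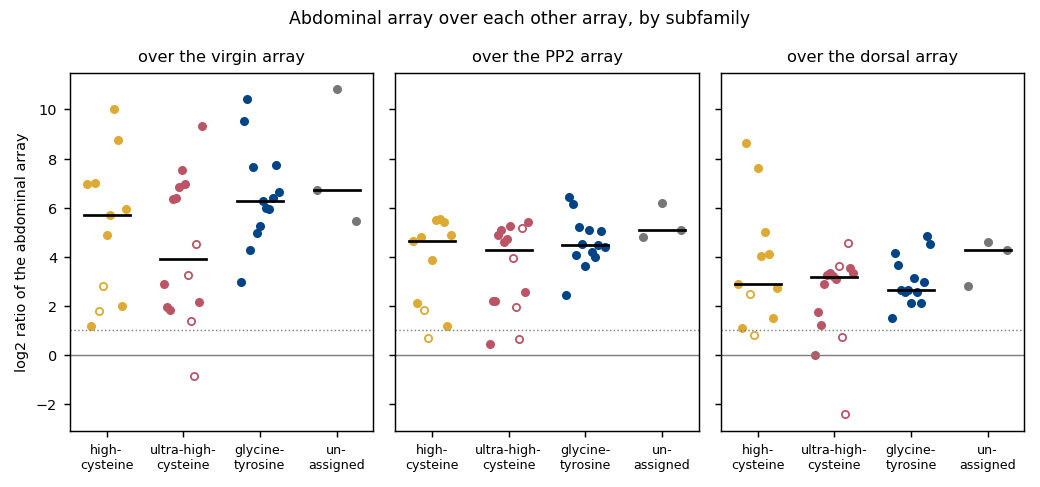
Log2 ratio of the abdominal signal over the virgin, PP2 and dorsal signals for each of the 41 genes (points, open where the gene was present on no array) by subfamily, with a bar at the subfamily median and a dotted line at a ratio of 2. The medians for high-cysteine, ultra-high-cysteine and glycine-tyrosine-rich genes are 5.68, 3.89 and 6.25 over virgin and 2.88, 3.16 and 2.65 over dorsal, and without the open points they are 5.96, 6.38 and 6.25 over virgin and 4.02, 3.16 and 2.65 over dorsal.

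Among high-cysteine genes, *Krtap15* had signals of 4.89 on virgin (absent), 159 on dorsal, 108 on PP2 and 5042 on abdominal. It was thus at least 472-fold higher on abdominal than on virgin, 46.8-fold higher than on PP2 and 31.7-fold higher than on dorsal. *Krtap16-3*, in the chromosome 16 cluster, is placed here by family number alone and may be glycine-tyrosine-rich. It measured 15.7 on virgin (absent), 398 on dorsal, 160 on PP2 and 6817 on abdominal, 17.1-fold above dorsal. Both followed the common order, with abdominal far above the other 3 arrays. *Krtap14* measured 30.9 on virgin (absent), 97.7 on dorsal, 35.02 on PP2 and 1585 on abdominal, 16.2-fold above dorsal. *Krtap1-5* of chromosome 11 measured 34.3 on virgin (absent), 586 on dorsal, 175 on PP2 and 4311 on abdominal, and *Krtap3-1* 24.2 (absent), 231, 50.7 (absent) and 1510. For this last pair the abdominal signal exceeded the dorsal one by 7.35-fold and 6.54-fold.

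*Krtap11-1* and *Krtap13-1*, both in the chromosome 16 cluster, broke the common order, in that dorsal skin had no detected signal. *Krtap11-1*, whose only probe set can match several transcripts, measured 15.3 on virgin (absent), 4.95 on dorsal (absent), 69.9 on PP2 and 1974 on abdominal. The values for *Krtap13-1* were 36.6 (absent), 5.42 (absent), 73.9 and 1072. Against dorsal, the abdominal signal was at least 211-fold higher for *Krtap11-1* and at least 115-fold higher for *Krtap13-1*, whereas against PP2 it was 28.2-fold and 14.5-fold higher. At the lower end, *Krtap26-1* was called present on abdominal alone, at 131, against 33.4, 47.0 and 57.7 (all absent) on virgin, dorsal and PP2. *Krtap10-4* was called present on all 4 arrays, at 224, 237, 116 and 500.0 in that order, and was 2.11-fold above dorsal on abdominal.

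Among the ultra-high-cysteine genes, the *Krtap4* genes and *Krtap9-3* on chromosome 11 followed the common order, while the *Krtap5* genes on chromosome 7 were hardly detected. *Krtap4-1* measured 51.9 on virgin (absent), 582 on dorsal, 146 on PP2 and 4270 on abdominal. *Krtap9-3* had signals of 3.07 (absent), 199, 46.4 and 1988 on the same arrays, which made abdominal at least 186-fold higher than virgin, 42.8-fold higher than PP2 and 9.97-fold higher than dorsal. In both, dorsal lay above PP2 and abdominal far above either. For *Krtap4-2* the signals were 19.5 (absent), 221, 90.8 and 2205, and for *Krtap4-16* 31.5 (absent), 278, 78.9 and 2649. *Krtap4-6* gave 19.1 (absent), 383, 136 (marginal) and 3568, and *Krtap4-7* 19.9 (absent), 287, 65.9 (marginal) and 2480. These 4 resembled *Krtap4-1*, though a pair of them was only marginal on PP2. Over dorsal, the abdominal signals of these 4 genes were 8.63-fold to 9.98-fold higher, and how far these paralogues share probe sequence was not tested.

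*Krtap17-1* stood apart. Its signals were 159 on virgin, 1192 on dorsal, 871 on PP2 and 1178 on abdominal, all called present. The 3 arrays of pregnant mice were therefore within 1.37-fold of each other, with dorsal marginally the brightest, and abdominal was 7.42-fold above virgin. *Krtap28-13* of chromosome 1 differed little between the other arrays, at 64.5, 72.5 and 54.4 on virgin, dorsal and PP2 and 247 on abdominal. *Krtap31-1* was present on virgin at 56.7 and on abdominal at 201, and absent on dorsal (85.5) and PP2 (44.4). Of the 5 *Krtap5* genes on chromosome 7, only *Krtap5-5* was detected, at 139 on abdominal against 31.5, 12.1 and 23.7 (all absent) on virgin, dorsal and PP2. By comparison, 12 of 12 genes on chromosome 11 and 20 of 21 on chromosome 16 were present on abdominal, as were 59.4% of all probe sets. High levels on that array had led to the choice of the family, so these counts are a description.

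The glycine-tyrosine-rich genes were the most uniform subfamily in detection, since 13 of 13 were present on both dorsal and abdominal. *Krtap7-1* measured 19.3 on virgin (absent), 142 on dorsal, 123 on PP2 and 4101 on abdominal, at least 212-fold above virgin and 29.0-fold above dorsal. *Krtap8-1* had signals of 107 (absent), 470, 509 and 10723 on these arrays, and its abdominal signal was 21.05-fold above PP2 and 22.8-fold above dorsal. Each of these is the only measured gene of its family number, and in both the dorsal and PP2 signals lay close together. *Krtap19-2* measured 4.44 on virgin (absent), 186 on dorsal, 37.9 on PP2 and 3297 on abdominal. *Krtap19-3* gave 2.90 (absent), 314, 56.6 and 3992, and *Krtap19-5* 20.4 (absent), 696, 110 and 4073. In these *Krtap19* genes, by contrast, dorsal lay well above PP2, and abdominal exceeded PP2 by 86.9-fold, 70.6-fold and 36.9-fold.

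*Krtap6-5* was the 1 glycine-tyrosine-rich gene called present on virgin, with 96.8 there, 1058 on dorsal, 369 on PP2 and 8239 on abdominal. Since every signal was detected, its folds are measured rather than bounds: abdominal was 85.1-fold above virgin, 22.3-fold above PP2 and 7.78-fold above dorsal. *Krtap22-2* measured 113 on virgin (absent), 973 on dorsal, 256 on PP2 and 8630 on abdominal, 8.87-fold above dorsal. The smallest excess over dorsal was in *Krtap21-1* (53.3 on virgin (absent), 465, 165 and 2008), *Krtap6-3* (48.8 (absent), 693, 189 and 2976) and *Krtap19-1* (43.9 (absent), 121, 62.5 (absent) and 340), at 4.32-fold, 4.29-fold and 2.81-fold. *Krtap6-2*, *Krtap19-4* and *Krtap19-9b* lay between, at 5.88-fold, 6.23-fold and 6.26-fold over dorsal.

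Of the unassigned genes, *Gm11559* measured 1.72 on virgin (absent), 128 on dorsal, 43.4 on PP2 (absent) and 3132 on abdominal. *Gm11567* gave 32.1 (absent), 72.1 (marginal), 40.9 and 1388, and *Gm10228* 60.9, 895, 229 and 6342, the last present on all 4. Over dorsal, abdominal was 24.4-fold higher for *Gm11559*, at least 19.3-fold for *Gm11567* and 7.09-fold for *Gm10228*. All 3 followed the common order.

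Not every gene was measured cleanly. A further 6 probe sets carried several symbols, among them *Krtap3-2* with *Krtap3-3*, and *Gm10228* with *Krtap6-1*, and were kept out of the counts. All 6 were present on abdominal. The 1 with *Gm10228* was present on virgin too, and abdominal exceeded virgin by 86.1-fold, whereas for the other 5, absent on virgin, the excess was at least 7.80-fold to at least 208-fold. Over dorsal, the 2 probe sets present there were 6.95-fold and 10.2-fold higher on abdominal, and the other 4 at least 3.30-fold to at least 28.6-fold. Near-identical copies may likewise share a probe set that carries 1 symbol, which was not tested. Of the 5 genes with a second probe set, *Krtap16-3* gave similar ratios over dorsal from both, 17.1-fold and 17.7-fold. For *Krtap19-1* the other probe set measured 3.46 on virgin (absent), 156 on dorsal, 17.1 on PP2 and 2349 on abdominal, so that abdominal was 15.1-fold above dorsal rather than 2.81-fold. The second *Krtap6-3* probe set was absent throughout, at 1.62, 40.5, 1.27 and 95.7 on virgin, dorsal, PP2 and abdominal, a pattern in which no signal was detected. The brighter *Krtap12-1* probe set gave 66.9, 41.5, 66.2 and 233 (all absent), and the other 47.7 (absent), 68.5 (absent), 14.2 (absent) and 135, the only present call of that gene. Both *Krtap5-1* probe sets were absent throughout, at 16.7, 12.9, 10.5 and 159.9 and at 3.60, 11.1, 8.64 and 129.

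Dorsal and PP2-injected skin were also compared with virgin skin. The counts and the medians over the 41 compare no abdominal signal, whereas the 35 genes are those called present on abdominal. In dorsal skin 27 of 41 genes were higher than on virgin and 0 lower, against 3.83% and 3.3% of all genes, with a median over the 41 of 7.51-fold (log2 2.91, and 3.14 over the 35). On PP2, 21 were higher and 0 lower, against 2.31% and 3.07% of all genes, with a median of 3.09-fold (log2 1.63, and 1.79 over the 35). By subfamily, the genes higher on dorsal were 5 of 11 high-cysteine, 7 of 14 ultra-high-cysteine and 13 of 13 glycine-tyrosine-rich, and on PP2 5, 5 and 10. The excess of dorsal over virgin was at least 34.0-fold for *Krtap19-5*, at least 29.4-fold for *Krtap19-3* and at least 25.3-fold for *Krtap16-3*. That of PP2 over virgin was at least 10.2-fold for *Krtap16-3* and at least 10.1-fold for *Krtap15*, and 5.49-fold for *Krtap17-1*. Among the 6 genes present on virgin, *Krtap10-4*, *Krtap28-13* and *Krtap31-1* had PP2 signals below those on virgin, the last without a present call on PP2. Signals were also expressed as a share of the abdominal signal over the 35 genes present there, a set kept through the array in the denominator, with undetected signals raised to the dimmest present signal. The median share was 11.6% on dorsal and 3.80% on PP2. On virgin it was at most 1.22% under this rule, where 29 of the 35 were undetected. Among the genes detected on the other array as well, the share ran from 3.15 to 101% over 29 genes on dorsal and from 1.15 to 74.0% over 27 on PP2.

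**Figure D3:**
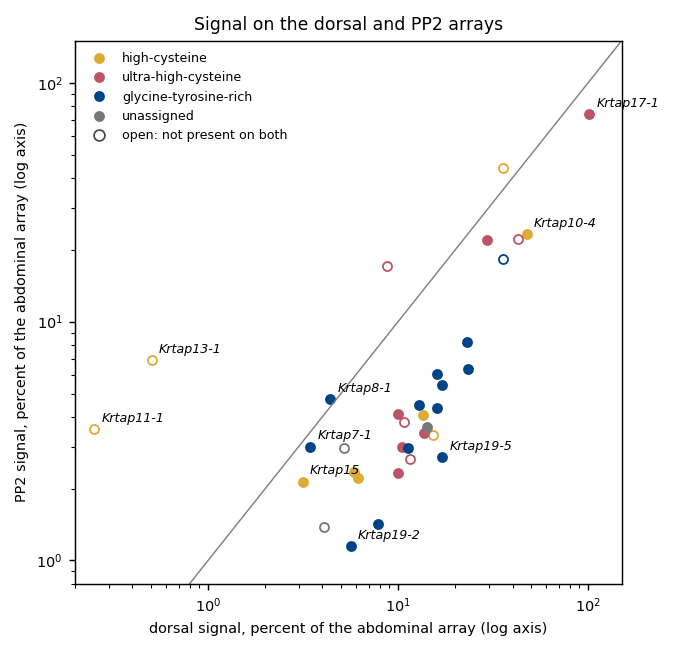
PP2 signal (vertical) against dorsal signal (horizontal), each as a percentage of the abdominal signal on log axes, for the 35 genes present on the abdominal array, with open points for genes not present on both, plotted at their deposited signals, and a line where the signals are equal. PP2 lies below dorsal in 30 of 35 genes, with *Krtap11-1* and *Krtap13-1* far above the line and *Krtap17-1* at the upper right, at 101% on dorsal.

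Between PP2-injected abdominal skin and dorsal skin of pregnant mice, most of the family was lower on PP2. Of the 41 genes 23 were lower, against 4.7% of all genes, and 2 were higher, against 3.89%, and the median ratio was 0.376 (log2 -1.41, and -1.50 over the 35). The 2 higher genes, a share of 4.88% that is near that of all genes, were *Krtap11-1* and *Krtap13-1*. Their PP2 signals were at least 7.47-fold and at least 7.90-fold above dorsal. By subfamily, 5 of 11 high-cysteine, 6 of 14 ultra-high-cysteine, 10 of 13 glycine-tyrosine-rich and 2 of 3 unassigned genes were lower. Among the 24 genes called present on both arrays, the ratio of dorsal over PP2 ran from 0.922 to 6.31 with a median of 3.01. The lowest ratios of PP2 over dorsal were in *Krtap19-5* (0.159), *Krtap19-3* (0.180), *Krtap19-2* (0.204), *Krtap9-3* (0.233) and *Krtap4-1* (0.251). The highest were in *Krtap8-1* (1.08), *Krtap7-1* (0.868), *Krtap28-13* (0.750), *Krtap17-1* (0.731) and *Krtap15* (0.677). Of these 5, only *Krtap8-1* was above dorsal. Across all probe sets present on both arrays the median ratio of PP2 over dorsal was log2 -0.12, and it became 0.07 when the arrays were scaled to 1 median and 0.03 after quantile normalisation. The number of genes lower on PP2 was then 22 and 20.

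**Figure D4:**
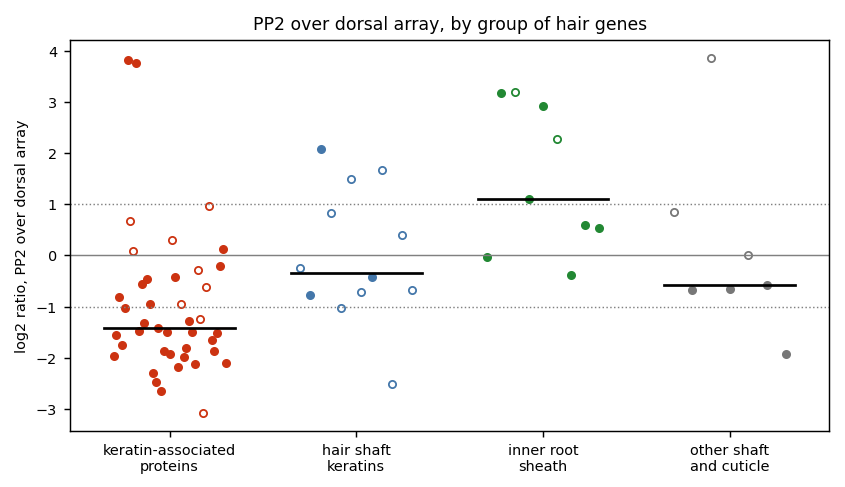
Log2 ratio of PP2 over dorsal for each keratin-associated protein gene, hair shaft keratin, inner root sheath gene and other shaft or cuticle gene (points, open where the gene was present on neither array), with a bar at the group median and dotted lines at a 2-fold difference. The medians are -1.41, -0.34, 1.11 and -0.58 in that order, and *Krtap11-1* and *Krtap13-1* are the filled points far above 0 in the first group. Open points number 9 of 41, 9 of 12, 2 of 9 and 3 of 7 in the same order.

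Other genes of the hair follicle were read from lists of known markers. Of all genes, 2.39% were higher and 2.49% lower on abdominal over virgin. On PP2 over dorsal the shares were 3.89% and 4.7%. The list counts below are to be read beside these shares. Hair shaft keratins, the filament proteins that keratin-associated proteins bind, were higher on abdominal than on virgin in 9 of 12 and lower in 0. *Krt33a* measured 2.52 on virgin (absent), 26.2 on dorsal (absent), 112 on PP2 and 2473 on abdominal, and *Krt34* 6.72 (absent), 92.6 (absent), 45.1 (absent) and 1602. *Krt86* and *Krt81* were at least 87.5-fold and 6.10-fold above virgin, and *Krt32*, at 1.94-fold, was not counted as higher. On dorsal, 2 of 12 hair shaft keratins were present, beside 29 of 41 keratin-associated protein genes and 58.8% of all probe sets. For PP2 over dorsal, 1 of 12 was higher and 0 lower, with a median of log2 -0.34. Of the 12, however, 9 were present on neither array, so this median rests mostly on undetected signals. With only 2 present on dorsal, hardly any could have been counted as lower, so the count cannot be set against that of the keratin-associated protein genes.

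Inner root sheath genes, which encode the layers that mould the shaft, were higher on abdominal than on virgin in 9 of 9. *Krt25* measured 19.6 on virgin, 70.4 on dorsal, 635 on PP2 and 3524 on abdominal, and *Krt28* 133, 23.3 (absent), 177 and 903. In both, PP2 lay above dorsal, unlike in most keratin-associated protein genes. The same held for 7 of the 9, but not for *Krt72* (ratio 0.767) and *Gata3* (0.986), and 2 of the 9 were present on neither array. For PP2 over dorsal, 3 of 9 were higher and 0 lower, with a median of log2 1.11, which was not tested against the median of the keratin-associated protein genes. Other shaft and cuticle genes were higher than on virgin in 4 of 7, and only *Prr9* of the 7 had the common order, at 72.3, 494, 313 and 3778 on virgin, dorsal, PP2 and abdominal. *S100a3*, a calcium-binding protein of the cuticle, measured 73.3 (absent), 56.8 (absent), 57.1 (absent) and 1083, and *Padi3*, which modifies arginines in follicle proteins, 24.5 (absent), 3.48 (absent), 50.7 (absent) and 232. *Crym* likewise was present on abdominal alone, at 284. The remaining 3 were not counted as higher: *Tgm3* was highest on dorsal, at 179.7, 1002, 263 and 224, *Selenbp1* gave 886, 1028, 689.7 and 681, and *Lgals7* 23615, 29611, 18621 and 23886.

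Transcription factors of the hair shaft differed less. On abdominal over virgin, 3 of 10 were higher and 0 lower. *Foxn1*, a regulator of hair keratinisation, measured 62.8 on virgin, 168 on dorsal, 33.1 on PP2 and 189 on abdominal. *Hoxc13*, which controls hair keratin genes, measured 279, 268, 397 and 590, and *Lef1*, the nuclear partner of beta-catenin in the hair matrix, 1100, 1389, 1558 and 556. *Lef1* thus had its lowest signal where the keratin-associated protein genes had their highest. Of the other follicle lists, melanocyte markers were higher in 3 of 8 and dermal papilla markers in 1 of 10 and lower in 3. Over all genes the shares were 2.39% higher and 2.49% lower. Epidermal keratinocyte markers were higher on abdominal than on virgin in 1 of 10 and lower in 0. The basal keratinocyte genes *Trp63* and *Krt15* measured 2997, 4685, 3871 and 5999 and 15369, 23179, 10602 and 17217 on virgin, dorsal, PP2 and abdominal. *Krt15* was thus highest on dorsal. So were these genes of the differentiated layers: *Lor* measured 469, 8964, 262 and 257, *Flg* 9.97 (absent), 269, 22.2 and 18.6, and *Ivl* 409, 1514, 441 and 778. Over the 10 epidermal keratinocyte markers, the signal exceeded that on dorsal in 3 on abdominal and in 0 on PP2. Proliferation genes were higher on PP2 than on dorsal in 6 of 6, against 3.89% of all genes. Epidermal keratinocyte markers were lower in 7 of 10, against 4.7%. The part of these shifts in the keratin-associated protein levels was not tested.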

How the data were processed

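Dermal cells were obtained by enzymatic dissociation of skin, total RNA was labelled with biotin and 1 Mouse430_2 array was hybridised per condition. The authors deposited MAS5 signals with detection calls, an intensity on a linear scale (Affymetrix Expression Console 1, per the submitters' processing notes). MAS5 subtracts background, summarises probes and scales each array to a trimmed mean. Signals were used as deposited, and 0 columns lacked a sample. Probe sets were named through the annotation of the array platform. All 41 members matched RefSeq (GRCm38.p6) by gene ID, and its promoter table supplied the sequences. Array number, rather than depth, limits precision.

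For a gene with several probe sets, the one with the highest mean log2 signal was used. Where the dimmer array gave no present call, a fold was taken against the higher of its signal and the dimmest present signal on that array. It is then written "at least", a convention and not a detection limit. Medians use signals as deposited. Subfamilies followed family numbers (4, 5, 9, 17 and 28 and above ultra-high-cysteine; 6, 7, 8 and 18 to 22 glycine-tyrosine-rich; others high-cysteine), since protein sequences were not used here. Values on all 4 arrays were given, in each subfamily, for the 4 genes with the largest and the 3 with the smallest excess on abdominal, for the 5 highest and 5 lowest ratios of PP2 over dorsal, for genes whose probe sets disagreed, and for a few genes added after their values were seen. Of the other lists, most genes named were drawn from the 3 largest and 2 smallest ratios of abdominal over virgin, and others were added after their values were seen. *Krt85*, *Krt74*, *Dsg4*, *Dsg3* and *Ccnb1* had no probe set of their own symbol. Members and lists were chosen with earlier results of these data known. Alternatives were other scalings, fold thresholds, probe sets and detection filters. The ratio part of the counting rule was tested on simulated signals that were all called present, so its detection part was not tested. Python 3.11.15, numpy 2.4.6, pandas 2.3.3 and matplotlib 3.10.9 were used.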

Additional observations from a re-analysis of the deposited data

How the results depend on the processing

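Of 164 alternative values, set against counts, medians over the 35 genes present on any array or over all 41, and subfamily medians over the genes present, 159 kept their direction and stayed within 1.5 times. Of the 5 others, 1 was the count of genes higher on PP2 than on dorsal, which was 1 instead of 2 when probe sets that can match several transcripts were left out, since *Krtap11-1* is measured only by such a probe set. The number of genes above 2 times each of the other 3 arrays on abdominal was 34, and it was 30 with a threshold of 3 and 33 after quantile normalisation. Over the 35 genes detected on any array, the median log2 ratio of PP2 over dorsal was -1.50, and it was -1.31 with arrays scaled to 1 median and -1.09 after quantile normalisation. The other 4 were subfamily medians taken over all measured genes, an alternative chosen after seeing the data. For ultra-high-cysteine genes they were log2 3.89 instead of 6.38 for abdominal over virgin, 2.23 instead of 3.31 for dorsal over virgin and 0.54 instead of 1.61 for PP2 over virgin, and for high-cysteine genes 2.88 instead of 4.02 for abdominal over dorsal. *Krtap16-3* was also grouped with the glycine-tyrosine-rich genes, again chosen after seeing the data. The high-cysteine median for abdominal over dorsal was then log2 3.45 instead of 4.02, and no subfamily median changed sign. Some of the 164 values could not differ from the main ones and say nothing of stability. Leaving out *Krtap17-1* cannot change the high-cysteine or glycine-tyrosine-rich medians, and moving *Krtap16-3* cannot change the ultra-high-cysteine ones. Taking all measured genes cannot change the glycine-tyrosine-rich medians, since all of those genes were detected. No paired analysis was possible because each condition had 1 array, and leaving out an array leaves its condition empty. With 1 array per condition no value carries an error. Folds written "at least" rest on the dimmest present signal, which is not a detection limit.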
